A study of Mus musculus with 10 samples.

Results

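The subject is 10 genes of the YAP pathway and the CCN family: the co-activators Yap1 and Wwtr1, their DNA-binding partner Tead1, the target genes Amotl2 and Ankrd1, and the CCN genes Cyr61, Ctgf, Nov, Wisp1 and Wisp2. They were taken by symbol from the authors' deposited expression table, where each of the 10 matched 1 row of 27968, no symbol was joined with another gene (0 of 10), and all 10 were among the 16681 rows with a valid test. The samples were subcutaneous tumours in immune-compromised mice, grown from C57BL/6 embryonic fibroblasts (MEFs) carrying RAS-G12V and DNP53, a dominant-negative p53. In 3 tumours cyclin D1 carried a tag (lines 12 and 14, of which 14 gave 2 tumours), in 2 tumours it did not (lines 18 and 25), and every animal was given the same siRNA against the HA sequence, so there was no group without siRNA. No line occurred in both groups, and a dissected tumour also holds cells of the mouse host. The 5 libraries were each run on 2 lanes, giving 10 samples.

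The deposited table holds 1 value for each of the conditions C2 and C1, with the p and q of Cuffdiff, the differential expression step of Cufflinks. Neither the labels nor the table says which of them is the tagged one, so each direction is that of C2 relative to C1. Values are taken as FPKM from the layout of the table, whose header names no unit, an abundance scaled by transcript length and library depth on which genes can be compared. Values of single tumours were not analysed here, so the values carry no SD and no n, and the depth is unknown. A gene was called at q under 0.05, which held for 7.12% of tested rows (4.2% higher and 2.92% lower in C2). The sources do not say if the replicates behind q were tumours or lanes, so q may not measure the variation from tumour to tumour. Ccnd1, the gene that carries the tag, had 243 FPKM in C2 and 161 FPKM in C1 by the authors' deposited table (Cuffdiff q = 0.218).

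YAP and its paralogue TAZ, the product of Wwtr1, are co-activators that bind DNA through TEAD factors. The Hippo kinases phosphorylate them and hold them out of the nucleus, while stiff matrix, cell spreading and low cell density favour their entry. CCN proteins are secreted into the matrix, where they bind integrins and other receptors, and Cyr61 and Ctgf are the classic readouts of YAP and TAZ in fibroblasts.

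Of the 10 genes only Cyr61 passed the test, and it was lower in C2. Cyr61 (XLOC_016303, chromosome 3, 145309934 to 145312949, MGSCv37) had 59.5 FPKM in C2 and 136 FPKM in C1 by the authors' deposited table (log2 ratio -1.19, Cuffdiff q = 0.0016681). Its q is the smallest among tested rows, and 500 of them share the smallest p (5e-05, Cuffdiff). The 9 others did not pass: 7 of them had the lower value in C2, and Ctgf and Nov had the higher. That is 1 call in 10 against 7.12% of all tested rows, and 3 of 10 at an unadjusted p under 0.05 against 17.1%, and a single call in so few genes is no departure from the table as a whole. Cyr61 was also the 1 call at q under 0.01 (4.21% of tested rows) and at q under 0.05 with a difference of at least 2-fold (6.46% of tested rows). The median log2 ratio of the 10 genes was -0.27, against 0.05 over all tested rows.

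**Figure D1:**
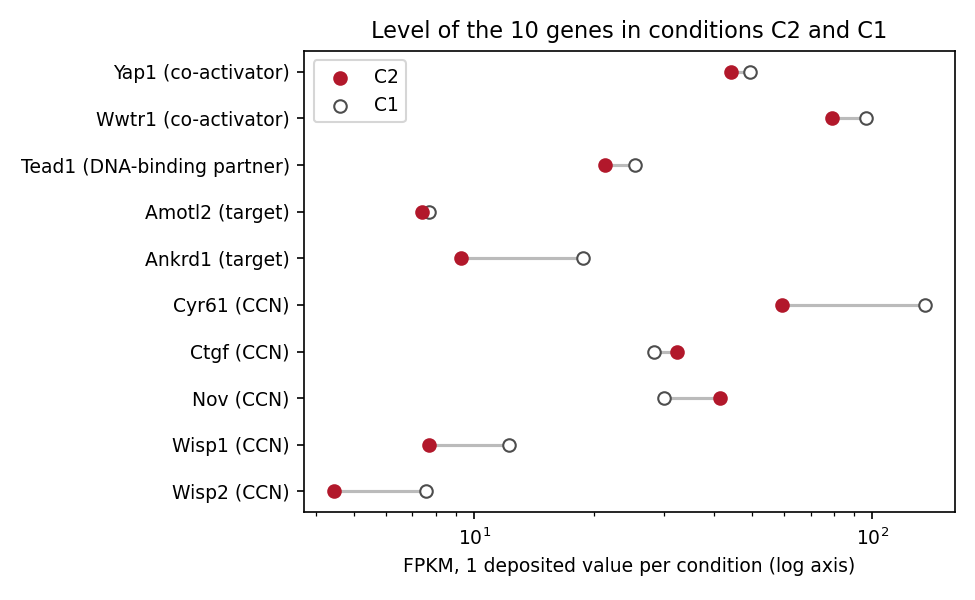
Deposited FPKM of the 10 genes on a log axis, with C2 as filled and C1 as open circles, 1 value per condition and no error. The widest gaps are those of Cyr61 (59.5 in C2 and 136 in C1) and Ankrd1 (9.28 in C2 and 18.7 in C1), while Yap1 and Amotl2 have nearly equal values.

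The promoters of the co-activators' target genes Cyr61, Ankrd1 and Amotl2 are shown because each carries the letters of the TEAD core site. Of these 3 genes only Cyr61 was called. RefSeq windows of 300 bases on GRCm38.p6 run from 250 bases before the gene's start to 50 after it, are read 5′ to 3′ along the gene's own strand, and have GGAATG or its complement CATTCC in capitals. The Cyr61 window is chr3:145649936-145650235 (minus strand), that of Ankrd1 chr19:36119795-36120094 (minus strand) and that of Amotl2 chr9:102717554-102717853 (plus strand).
Cyr61: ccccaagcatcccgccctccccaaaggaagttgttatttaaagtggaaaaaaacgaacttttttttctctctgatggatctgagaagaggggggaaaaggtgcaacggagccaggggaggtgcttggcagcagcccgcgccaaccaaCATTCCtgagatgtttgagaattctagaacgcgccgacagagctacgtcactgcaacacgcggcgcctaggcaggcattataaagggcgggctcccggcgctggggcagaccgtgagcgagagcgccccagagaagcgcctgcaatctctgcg
Ankrd1: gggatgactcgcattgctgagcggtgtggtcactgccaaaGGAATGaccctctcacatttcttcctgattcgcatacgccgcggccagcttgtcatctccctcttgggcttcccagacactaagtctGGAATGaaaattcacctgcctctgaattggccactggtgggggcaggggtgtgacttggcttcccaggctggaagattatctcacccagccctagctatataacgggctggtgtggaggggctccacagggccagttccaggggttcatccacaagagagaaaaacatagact
Amotl2: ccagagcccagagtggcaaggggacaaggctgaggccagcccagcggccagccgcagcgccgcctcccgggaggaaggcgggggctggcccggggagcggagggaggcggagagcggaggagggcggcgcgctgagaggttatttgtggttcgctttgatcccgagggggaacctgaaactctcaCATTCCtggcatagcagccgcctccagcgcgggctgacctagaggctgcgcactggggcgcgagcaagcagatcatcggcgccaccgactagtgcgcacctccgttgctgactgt

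The search covered GGAATG on both strands, and neither spelling overlaps the other in these windows. Cyr61 held 1 copy, on the opposite strand, 103 bases before the start. Ankrd1 held 2 copies on the gene's strand, 210 and 123 bases before the start, and Amotl2 held 1 on the opposite strand, 65 bases before it. Windows were given for 5 of the 10 genes, and the core was found in all 5, with 1 site each for Yap1 and Wwtr1, against 16.6% of the 27025 genes with a window. The AP-1 site TGANTCA, which reads the same on both strands, was in none of the 5 (0), against 8.97% of all genes. A match of letters does not show a bound site, and whether the core bears on any of the ratios was not tested. Ctgf, Nov, Wisp1, Wisp2 and Tead1 had no window in the table used.

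The co-activators and Tead1 had ratios near 0 and were not called. Yap1 (XLOC_025847, chromosome 9, 7931998 to 8004596, MGSCv37) had 44.3 FPKM in C2 and 49.4 FPKM in C1 by the authors' deposited table (log2 ratio -0.16, Cuffdiff q = 0.870). Wwtr1, which encodes TAZ (XLOC_015880, chromosome 3, 57259508 to 57379832, MGSCv37), had 79.2 FPKM in C2 and 96.5 FPKM in C1 there, a log2 ratio of -0.29 (q = 0.679). Wwtr1 thus stood at 1.79 times the level of Yap1 in C2 and 1.95 times in C1 on the FPKM scale, and the summed level of both was 123 FPKM in C2 and 146 FPKM in C1. Tead1, which brings the co-activators to DNA (XLOC_022190, chromosome 7, 119822833 to 120050319, MGSCv37), had 21.3 FPKM in C2 and 25.4 FPKM in C1 by the authors' deposited table (log2 ratio -0.26, q = 0.708). These 3 ratios lay inside the middle 50% of tested rows, which spans -0.31 to 0.38. A q above the threshold does not show that levels were equal, and no interval can be given without values per tumour.

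Of the target genes, Ankrd1 had about the same size of ratio as Cyr61 but did not pass. Ankrd1, a nuclear ankyrin-repeat protein that heart and stretched or injured skeletal muscle also make (XLOC_012576, chromosome 19, 36186454 to 36194334, MGSCv37), had 9.28 FPKM in C2 and 18.7 FPKM in C1 by the authors' deposited table. Its log2 ratio was -1.01 with an unadjusted p of 0.0073 and q = 0.0832 by Cuffdiff. Amotl2, an angiomotin that binds YAP at cell junctions and is itself a target (XLOC_025659, chromosome 9, 102619739 to 102635747, MGSCv37), had 7.40 FPKM in C2 and 7.72 FPKM in C1 in the same table, a log2 ratio of -0.06 (q = 0.971). Amotl2 lay closest to 0 of the 10 genes.

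Markers of skeletal muscle were lower in C2, the direction of the uncalled Ankrd1 ratio. Of 14 skeletal muscle markers 11 were called lower and 0 higher in C2 (median log2 ratio -3.50). That is 78.6% called lower, against 2.92% of all tested rows. Their summed levels were 143 FPKM in C2 and 1534 FPKM in C1, and none was listed at 0. The 4 called markers furthest apart were the troponin Tnnc2 (-3.86), the titin gene Ttn (-3.86), the myosin light chain Myl1 (-3.76) and the creatine kinase Ckm (-3.74). Of 10 tested cardiac and slow muscle markers, Ankrd23, a relative of Ankrd1, was called lower, with 6.30 FPKM in C2 and 60.7 FPKM in C1 by the authors' deposited table, and Tnnt2 was called higher (log2 ratio 1.45). That is 20% called in either direction, against 7.12% of all tested rows. The list's median log2 ratio was -2.53, and its summed level, most of it Nppb, was 328 FPKM in C2 and 293 FPKM in C1. The part of muscle cells in the Ankrd1 value was not tested. In whole tumours, fewer cells of a type and less RNA per cell cannot be told apart.

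**Figure D2:**
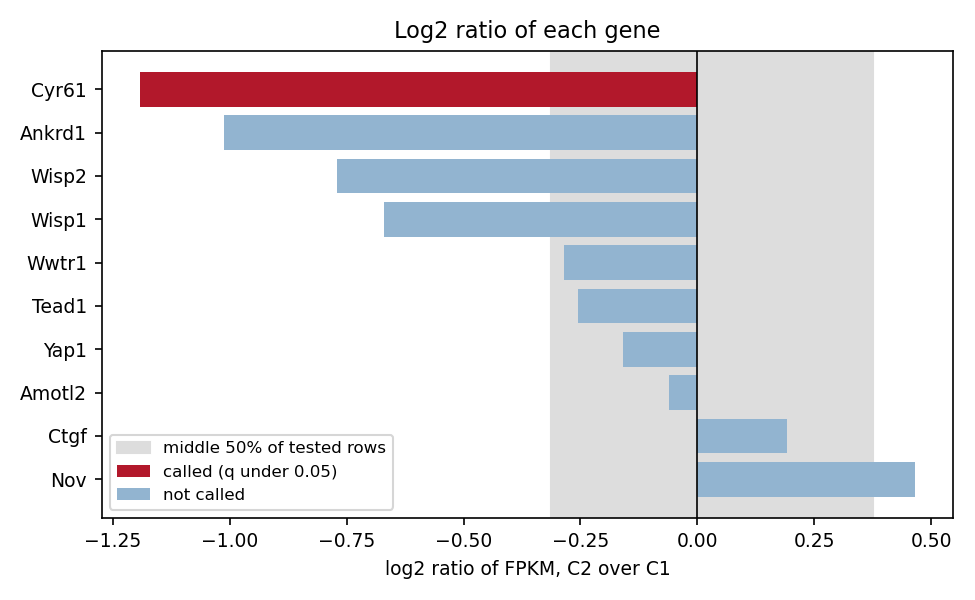
Log2 ratio of FPKM, C2 over C1, for each of the 10 genes, with the middle 50% of tested rows (-0.31 to 0.38) shaded. Cyr61 (-1.19) is the bar that passed q under 0.05, while Ankrd1 (-1.01), Wisp2 (-0.77), Wisp1 (-0.67) and Nov (0.46) lie outside the shading without passing.

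The 5 CCN genes did not share a direction. Cyr61, a matricellular protein that promotes adhesion and vessel growth, fell by 1.19 on the log2 scale, a C2 level 0.438 times that of C1. A ratio at or below that of Cyr61 was found for 6.89% of tested rows, and 32.0% of those rows were called. Ctgf, a close relative that promotes matrix production (XLOC_001650, chromosome 10, 24315247 to 24318488, MGSCv37), had 32.2 FPKM in C2 and 28.3 FPKM in C1 by the authors' deposited table (log2 ratio 0.19, Cuffdiff q = 0.844). Nov, a family member that opposes several actions of the others (XLOC_008007, chromosome 15, 54577482 to 54585316, MGSCv37), had 41.5 FPKM in C2 and 30.1 FPKM in C1 there, a log2 ratio of 0.46 (q = 0.402). The difference between the ratios of Cyr61 and Ctgf was not tested, since that needs values per tumour.

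Wisp1 and Wisp2 were the least abundant CCN genes among the 5 in both conditions. Wisp1, first found as a Wnt-induced gene and made by fibroblasts and bone-forming cells (XLOC_008043, chromosome 15, 66722920 to 66754764, MGSCv37), had 7.70 FPKM in C2 and 12.3 FPKM in C1 by the authors' deposited table. Its log2 ratio was -0.67, with an unadjusted p of 0.0261 and q = 0.197 by Cuffdiff. Wisp2, which lacks the C-terminal cystine-knot domain of the other CCN proteins (XLOC_013731, chromosome 2, 163646569 to 163658883, MGSCv37), had 4.44 FPKM in C2 and 7.58 FPKM in C1 in the same table, a log2 ratio of -0.77 (q = 0.332). Both had the lower value in C2 and neither passed.

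The make-up of the CCN message differed between the conditions, mainly through Cyr61. The summed level of the 5 genes was 145 FPKM in C2 and 214 FPKM in C1, and without Cyr61 it was 85.9 FPKM in C2 and 78.2 FPKM in C1. Cyr61 made up 40.9% of the sum in C2 and 63.5% in C1, Nov 28.5% in C2 and 14.0% in C1, and Ctgf 22.2% in C2 and 13.2% in C1. The level of Cyr61 was 1.84 times that of Ctgf in C2 and 4.81 times in C1 on the FPKM scale. In C2 the order of levels among all 10 genes ran Wwtr1, Cyr61, Yap1, Nov, Ctgf, Tead1, Ankrd1, Wisp1, Amotl2 and Wisp2. In C1 it was the same except that Cyr61 stood above Wwtr1. Whether neighbours in these orders differ beyond the spread between tumours could not be tested.

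**Figure D3:**
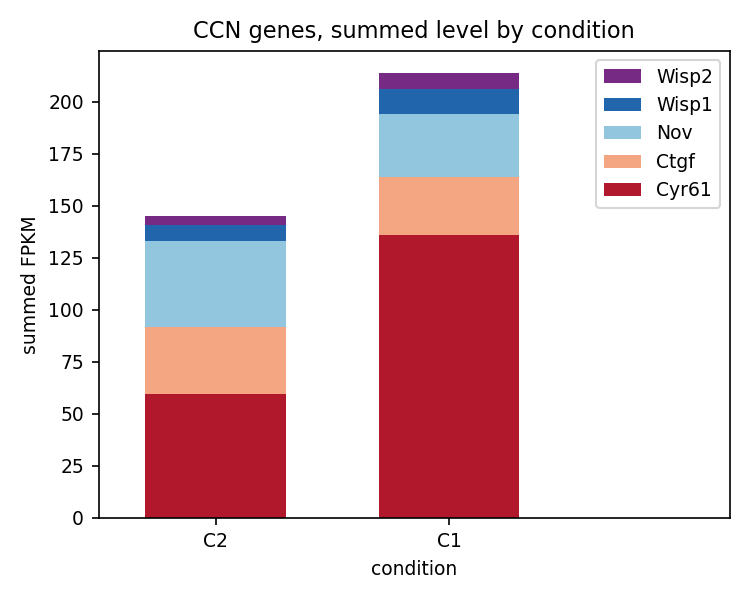
Summed FPKM of the 5 CCN genes in C2 and C1, stacked by gene, 1 deposited value per gene and condition. The stack reaches 145 in C2 and 214 in C1, and the Cyr61 segment (59.5 in C2 and 136 in C1) differs by more than the whole stack does, since the other 4 genes together sum to 85.9 in C2 and 78.2 in C1.

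Fibroblast markers were lower in C2, the direction of Cyr61 and of the uncalled ratios of Wisp1 and Wisp2. Ctgf and Nov, also uncalled, had the higher value in C2 (log2 ratios 0.19 and 0.46). Of 12 fibroblast markers 7 were called lower and 0 higher (median log2 ratio -1.07). That is 58.3% called lower, against 2.92% of all tested rows. Their summed levels were 2019 FPKM in C2 and 5057 FPKM in C1, with none at 0. Among the 7 were the surface glycoprotein Thy1 (-2.97) and the matrix genes Lum (-1.90), Mmp2 (-1.76) and Postn (-1.48). Col1a1 is also among the 7, and its deposited values, which enter the sums, give a ratio of -0.15 while its deposited log2 fold is -1.07. Of 12 epithelial markers 10 were called higher and 0 lower (median 3.23), with 1168 FPKM in C2 and 644 FPKM in C1, among them Cldn7 (5.73), Krt7 (4.62), Esrp1 (4.36) and Cldn3 (4.15). The part of fibroblasts and epithelial cells in the values of the CCN genes was not tested. The endothelial list had calls in both directions, Tek lower (-1.53) and Cdh5 higher (0.90), while 8 of its 10 markers had the lower value in C2 (median -0.57). Of 11 macrophage markers Cd14 was called higher (1.13), while 7 had the lower value in C2 (median -0.07). The adipocyte list had 2 lower calls, Lpl (-1.22) and Car3 (-0.94), and 5 of its 6 tested markers had the lower value in C2 (median -0.60). In either direction the share called was 20% of the endothelial, 9.09% of the macrophage and 33.3% of the adipocyte markers tested. For all tested rows it was 7.12%, which the macrophage share lies near. Of 10 lymphocyte markers only 5 were tested, and among these Cd79a and Cd79b were lower (-3.24 and -2.91), both under 4 FPKM. None of 4 tested neutrophil markers was called by Cuffdiff (0, with 2 at an unadjusted p under 0.05, and q = 0.229 for S100a8).

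The Hippo pathway upstream of YAP and TAZ showed 1 call. Of 26 kinases and regulators, Wwc1, the scaffold also known as Kibra that promotes Hippo kinase activity, was higher in C2, with 28.6 FPKM in C2 and 8.73 FPKM in C1 by the authors' deposited table (log2 ratio 1.71, Cuffdiff q = 0.0016681). None was called lower by Cuffdiff (0, with 3 lower at an unadjusted p under 0.05), and the list's median log2 ratio was 0.07, against 0.05 over all tested rows. Its share of calls, 3.85%, was under that of the table (7.12%). Among the TEAD factors and their Vgll cofactors, Vgll3 was the 1 call of 6 tested, lower in C2 with 1.58 FPKM in C2 and 3.80 FPKM in C1 by the authors' deposited table (log2 ratio -1.27, q = 0.0470). That is 16.7% of this list, against 7.12% of all tested rows in either direction and 2.92% lower. With a minimum of 5 FPKM in a condition, 0 genes of this list were called. The 4 TEAD genes together had 95.5 FPKM in C2 and 104 FPKM in C1, of which Tead1 made up 22.3% in C2 and 24.5% in C1. The most abundant TEAD gene in both was Tead2, named after its values were seen, with 43.3 FPKM in C2 and 49.2 FPKM in C1 by the authors' deposited table (q = 0.837).

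Counted in either direction, other genes known as YAP and TAZ targets had a share of calls near that of the table. Of 22 tested, 2 were called lower in C2 and 0 higher: the RNA-binding protein gene Rbms3 (log2 ratio -0.92, Cuffdiff q = 0.0397) and the guanine nucleotide exchange factor gene Arhgef17 (-0.80, q = 0.0499). That is 9.09% called in either direction, against 7.12% of all tested rows, and 9.09% called lower, against 2.92%. At an unadjusted p under 0.05 there were 9 of 22, 6 lower and 3 higher in C2, against 17.1% of all tested rows. The lower value was in C2 for 16 and in C1 for 6, with a median log2 ratio of -0.29 and a range of -0.92 to 1.48. Lats2, Ptpn14 and Ajuba stand in both this list and that of the Hippo regulators, since each is a target that also restrains YAP, and their log2 ratios were -0.75, -0.83 and -0.66 (q = 0.242, 0.0598 and 0.285). These 3 were named after their values were seen.

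Receptors and pathways linked to the CCN genes were also described by their counts. Of 14 tested CCN receptors, the integrin chain gene Itgb5 was called lower in C2, with 52.2 FPKM in C2 and 88.2 FPKM in C1 by the authors' deposited table (log2 ratio -0.76, Cuffdiff q = 0.0437), and 0 were called higher (median -0.21). Of 14 genes of the SRF and MRTF pathway, which also drives Cyr61 and Ctgf, the tropomyosin gene Tpm2 was called lower (-0.84, q = 0.0380) and 0 higher (median -0.31). Of 11 TGF-beta outputs, the inhibitor Smad7 was called higher (0.96, q = 0.0408) and 0 lower (median -0.22). Of 9 tested Wnt outputs, the pathway named in the Wisp symbols, 3 were called higher, the Wnt antagonists Rnf43 (4.73), Nkd2 (2.89) and Notum (1.12), and 1 lower, the secreted Wnt-binding Sfrp2 (-1.26), with a median of -0.08. The share called in either direction was 7.14% of the receptors, 7.14% of the SRF and MRTF genes and 9.09% of the TGF-beta outputs. That is near the 7.12% of all tested rows, while 44.4% of the 9 tested Wnt outputs were called. Rnf43, 1 of those called, had only 0.105 FPKM in C1. Wnt outputs not called were Axin2 (-0.13), Tcf7 (-0.08), Lef1 (-0.84), Lgr5 (-1.44) and Znrf3 (0.39), named after their values were seen. The calls of the receptors and of the SRF and MRTF genes were lower in C2, as were 2.92% of tested rows. At an unadjusted p under 0.05 there were 4 of 14 receptors (4 lower in C2) and 2 of 14 SRF and MRTF genes (2 lower). The same held for 4 of 11 TGF-beta outputs (3 lower) and 5 of 9 Wnt outputs (2 lower), against 17.1% of tested rows. Wisp1 and Wisp2 both had the lower value in C2.

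**Figure D4:**
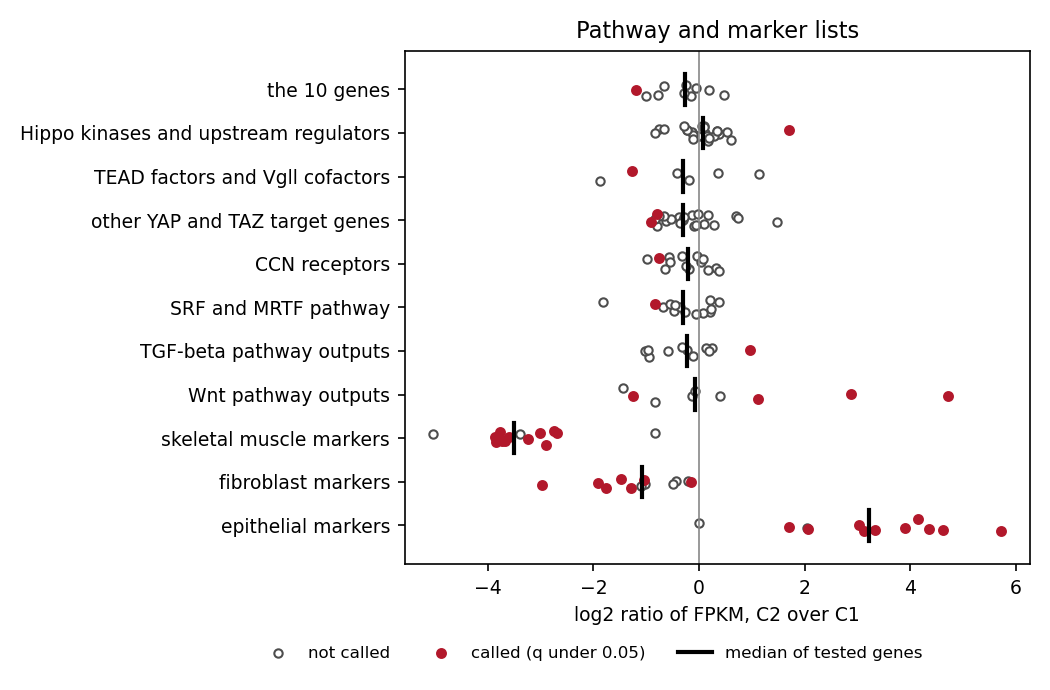
Log2 ratio of FPKM, C2 over C1, for each tested gene of the 10 genes and of 10 lists, with called genes filled and the median as a bar. The medians of the pathway lists lie between -0.31 and 0.07, against -3.50 for skeletal muscle, -1.07 for fibroblast and 3.23 for epithelial markers. The filled fibroblast point near 0 is Col1a1, whose ratio of deposited values is -0.15 while its deposited log2 fold is -1.07.

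The genes around each of the 10 were compared to see whether neighbours had like ratios. Within 500 kb, 101 tested rows were found, of which 10 were called higher and 3 lower in C2, 12.9% against 7.12% of all tested rows. Cyr61 was the 1 gene of the 10 with only lower calls around it, 2 of 14 rows, against 2.92% of all tested rows called lower. An unnamed row (XLOC_015724, chromosome 3, 145313307 to 145315621, MGSCv37) begins 358 bases beyond the upper end of Cyr61, which is the side of its start, and had 0.766 FPKM in C2 and 2.64 FPKM in C1 by the authors' deposited table (log2 ratio -1.78, Cuffdiff q = 0.0437). The table gives no strand, so whether these reads belong to Cyr61 cannot be told. Ddah1, an enzyme that breaks down methylated arginines, lies 109 kb from Cyr61 and was called lower (-0.86, q = 0.0239).

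Calls around the other genes were mostly higher in C2, as were most calls among all tested rows (4.2% higher and 2.92% lower). Ndrg1, a stress and hypoxia gene 5.91 kb from Wisp1, was called higher with 102 FPKM in C2 and 29.0 FPKM in C1 by the authors' deposited table (log2 ratio 1.81), while Wisp1 had the lower value in C2. Mal2 (3.50) and Deptor (1.16) lie near Nov, Enpp3 (1.82) and the lower Moxd1 (-1.23) near Ctgf, and AK129341 (2.19) near Yap1. Trf, the transferrin gene, and Slco2a1 lie near Amotl2 and had log2 ratios of 4.48 and 1.20. Rassf10 (3.81) lies near Tead1, and R3hdml (2.83) and Wfdc5 (3.51) near Wisp2. None was called near Wwtr1 (0 of 22 rows, of which 6 carry a gene name) or Ankrd1 (0 of 3). The listed locus is shared by 29 of the 101 rows with another row, so their distances are those of the shared locus. The 101 rows stand for 80 distinct loci, so shares of rows are not shares of separate loci.

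**Figure D5:**
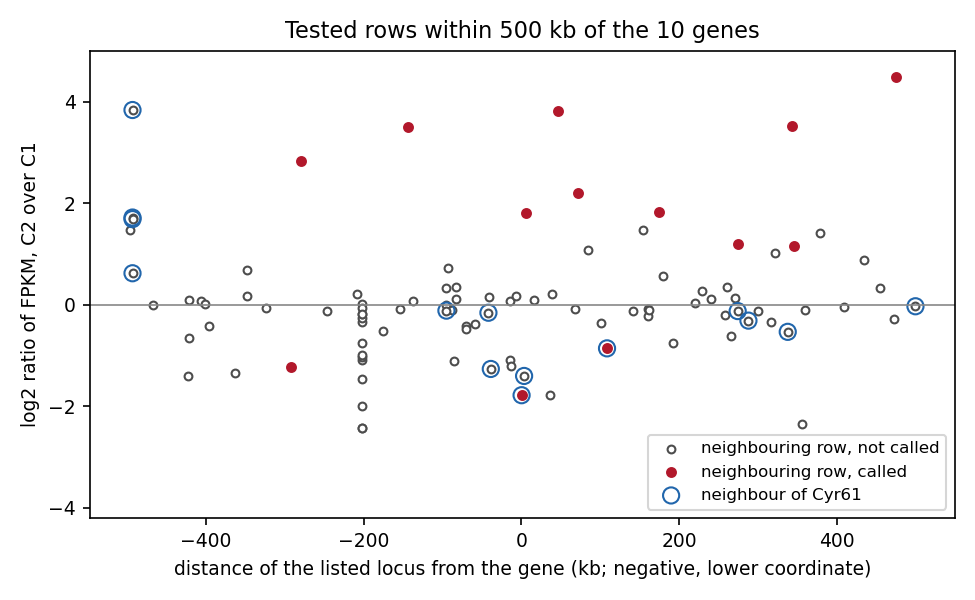
Log2 ratio of FPKM, C2 over C1, of the 101 tested rows within 500 kb of the 10 genes, by distance, with called rows filled and neighbours of Cyr61 ringed. Filled points are mostly above 0, while those ringed are -1.78 at 0.358 kb and -0.86 at 109 kb.

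Cyr61 was the 1 gene of the 10 found in the authors' selection of 28 gene ontology terms. It stood in 2 of them, vasculature development and blood vessel development, for which the authors' deposited table gives 42 genes of their list among 276 (p = 8.2632e-16, hypergeometric test) and 40 among 265 (p = 5.3348e-15). Only called genes entered that test, so the other 9 could not appear. The authors tested these terms against the whole annotation, not against the genes measured in the tumours.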

How the data were processed

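Messenger RNA of 5 tumours was sequenced as single reads of 100 bases from a stranded mRNA kit, per the labels' protocols. Tumours were treated from a size of 500 mm3 with 5 rectal doses a day and dissected 30 minutes after the final dose. The series' design text names MGSCv37, Bowtie, TopHat and Cufflinks, and Cufflinks 2.1.1, TopHat2 2.0.8b and CASAVA 1.8.2 are listed per the submitters' processing notes. The authors deposited 1 FPKM value per condition, and the p-values and q-values are theirs. The unit is not named in the header and is taken from the Cuffdiff layout. Strand use in counting is not stated in the labels.

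The log2 ratio is the C2 value over the C1 value with no pseudocount. Calls are the deposited q under 0.05, adjusted over all 16681 tested rows, and nothing was tested again. The authors' log2 fold, listed as another measure since a spreadsheet spoiled some cells, was used only for comparison. Of several rows with 1 symbol, that with the highest mean was used.

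The 10 genes and 16 lists were chosen with earlier results of these data known. Named were all 10 genes, the called neighbours, and in each list the 4 called genes with the largest absolute log2 ratio (all where fewer were called, and the most abundant gene where none was). No gene of like pattern is named, since 2 values define no pattern. A marker gene that this rule selects is not reported here. The AP-1 search was added after seeing the data. List code was tested on simulated data. Tools were pandas 2.3.3, numpy 2.4.6 and matplotlib 3.10.9 under Python 3.11.15.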

Additional observations from a re-analysis of the deposited data

How the results depend on the processing

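No paired analysis was possible because each condition has only 1 deposited value, and leaving out each replicate was not run for that reason. Each symbol had 1 row, so no other row could be tried. With pseudocounts of 0.1 and 1, with ratios centred on the median of tested rows with at least 1 FPKM in a condition (0.06) and with the deposited fold, all 40 recomputed log2 ratios of the 10 genes kept their sign. Cyr61 remained the 1 call at q under 0.01, with minimums of 1 and 5 FPKM and with a 2-fold minimum. At an unadjusted p under 0.05, 3 of the 10 genes passed, Cyr61, Ankrd1 and Wisp1. Over all lists 49 genes were called, against 30 at q under 0.01 and 77 at an unadjusted p under 0.05, which follow from the thresholds. At q under 0.01 none (0) of Vgll3, Rbms3, Arhgef17, Itgb5, Tpm2 and Smad7 was called, while Wwc1 was. Within 200 kb, 7 of 42 neighbouring rows were called (16.7%), against 13 of 101 within 500 kb (12.9%) and 7.12% of all tested rows. Depth is unknown.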

Other observations

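Wisp3, the family's sixth CCN gene, was not tested by Cuffdiff and had 0.175 FPKM in C2 and 0.0665 FPKM in C1 by the authors' deposited table. The inhibitor of apoptosis genes Birc2 and Birc3, which lie next to Yap1 and were named after their values were seen, were not called. Birc2 had 9.51 FPKM in C2 and 9.62 FPKM in C1 by the authors' deposited table (Cuffdiff q = 0.993). Birc3 had 6.23 FPKM in C2 and 8.15 FPKM in C1 there (q = 0.678).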
